A study of Rattus norvegicus with 72 samples.

Results

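The lungs of rats that had inhaled diesel exhaust particles at 1000 ug/m3 were compared directly with the lungs of rats that had inhaled them at 200 ug/m3, 7 days after the exposure ended. The comparison used 12 of the 72 libraries of the study, 6 per dose and 1 per animal, chosen by their labelled dose and day alone, and it was described across all genes. All animals were adult male Sprague-Dawley rats that breathed the aerosol by whole-body inhalation for 6 hours per day on 4 days. Air-breathing rats were sampled beside each dose at days 1, 7 and 27 and did not enter the main comparison. Every library came from RNA of a piece of lung, which mixes all cell types of the organ. In such bulk tissue, fewer cells of a type and less RNA per cell cannot be told apart. The titles of the 1000 ug/m3 animals and of 1 set of air animals carry the letter H, and those of the 200 ug/m3 animals and of the other air animals the letter L. What these letters stand for is not given in the labels, nor whether the H and L sets were exposed or sequenced together. Dose and set cannot be told apart within the exposed animals, so the same contrast in the air animals, air H minus air L, is given beside many of the results. Differences named without an air value may hold in air as well.

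Diesel exhaust particles carry a carbon core with adsorbed organic compounds, metals and other material. Inhaled particles that reach the alveoli are taken up mainly by macrophages, and the adsorbed aromatic compounds can bind the aryl hydrocarbon receptor, which induces cytochrome P450 genes such as Cyp1a1. Responses known from the lung include antioxidant genes under the factor NRF2, neutrophil recruitment by chemokines, interferon-induced genes and, after longer exposure, matrix deposition.

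Library totals ran from 3535205 to 6279763 counts in 5 of the 6 animals of 1000 ug/m3 and from 3575317 to 5333810 counts in the 6 animals of 200 ug/m3. The library of animal 037, of the 1000 ug/m3 group, held only 105453 counts, so that 1 count in it equals 8.99 CPM (counts per 1e6 counts of the library), and 3 counts, the limit that a count of 0 allows, equal 27 CPM. It had counts for 11552 genes, where the other 11 libraries had counts for 18176 to 19118. The difference in mean log10 total between the doses was -0.30 (p = 0.26, two-sided exact permutation test, 6 against 6) and -0.03 without animal 037 (p = 0.513, two-sided exact permutation test). In a principal component analysis of the other 11 libraries, the first component took 31.8% of the variance and separated the doses, from -31 to -17.5 in the 1000 ug/m3 animals and from 12.6 to 33.9 in the 200 ug/m3 animals. The genes of type II pneumocytes, the surfactant-making cells that mark lung tissue, summed to between 17780 and 26280 CPM in all 12 libraries, and those of skeletal muscle to at most 10.9 CPM. All CPM below are scaled by TMM factors, and all differences are log2 of the level at 1000 ug/m3 over that at 200 ug/m3.

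At 1000 ug/m3, 1126 genes were higher and 1972 were lower than at 200 ug/m3. These 3098 genes made up 22.4% of the 13805 genes tested (edgeR quasi-likelihood test, Benjamini-Hochberg adjusted p under 0.05), with 8.16% higher and 14.3% lower. Most differences were small: the median log2 difference was 0.34 among the higher genes and -0.54 among the lower genes. Differences of more than 2-fold were counted for 231 lower genes and for 3 higher genes, which were Grcc10 at 2.47, LOC102549714 at 1.52 and Pifo at 1.00, named here after their values were seen. Pifo lay low, with medians of 3.71 CPM at 1000 ug/m3 and 2.31 CPM at 200 ug/m3, under 1 count of animal 037. For 90.3% of the tested genes the 95% interval of the difference lay within 2-fold in either direction. All 6 animals of 1000 ug/m3 lay above all 6 of 200 ug/m3 for 374 genes (2.71%), and below them for 1074 genes (7.78%). Of the calls, 36.3% were higher at 1000 ug/m3. That split became 47.1% without scaling factors and 47.4% with upper-quartile factors. Without animal 037, 3350 of 14004 genes passed (23.9%), 1344 higher (9.6%) and 2006 lower (14.3%), and 3036 of the 3098 passed in the same direction.

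**Figure D1:**
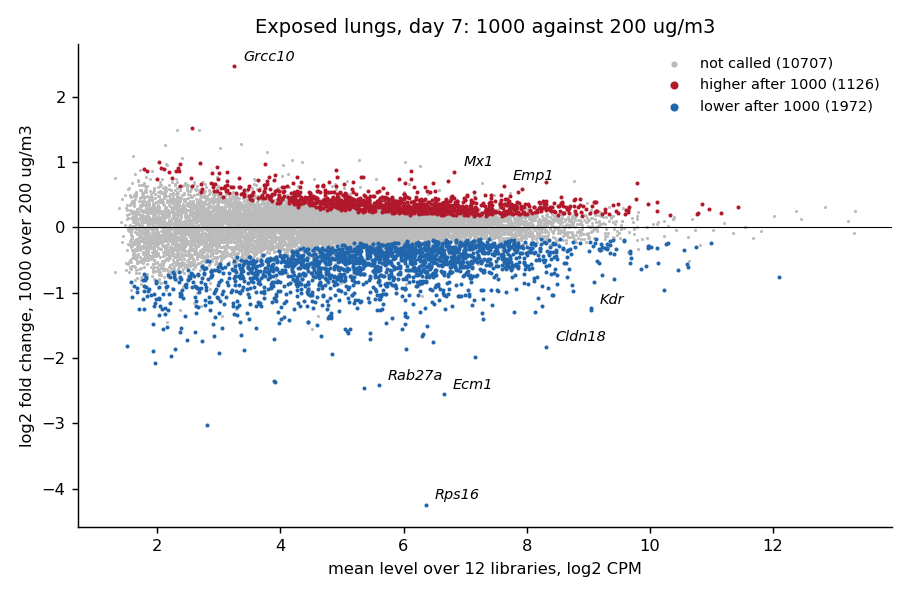
Each point is 1 of the 13805 genes tested, placed by its mean level over the 12 libraries (log2 CPM, horizontal axis) and its log2 difference between 1000 and 200 ug/m3 (vertical axis). The 1972 lower genes reach down to -4.25 at Rps16, while only 3 of the 1126 higher genes pass 2-fold.

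The air animals of day 7, which had inhaled no diesel particles, also differed between their sets. Between air H and air L, 1706 genes were higher and 2404 lower, 4110 of 13836 tested (29.7%). No library is shared by the 2 contrasts. Of the 3091 genes called in exposed lungs and tested in air, 2272 were called in the same direction in air, 73.5% of the exposed calls and 55.3% of the air calls. This held for 58.2% of the genes that were higher at 1000 ug/m3 and for 82.2% of those that were lower. LOC100910706 was the 1 gene called in opposite directions, at -0.87 in exposed lungs and 0.89 in air. Genes higher at 1000 ug/m3 had a median air difference of 0.23, and genes lower at 1000 ug/m3 one of -0.48. Across 13681 genes the 2 contrasts had a Pearson correlation of 0.75, a description over genes, which are not independent replicates. The test of the difference between the exposed and the air contrast called 0 of 14331 genes (0%, edgeR), with 747 at an unadjusted p under 0.05. limma-voom called 0 genes, and DESeq2 called 1, Sv2c, at -6.60.

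**Figure D2:**
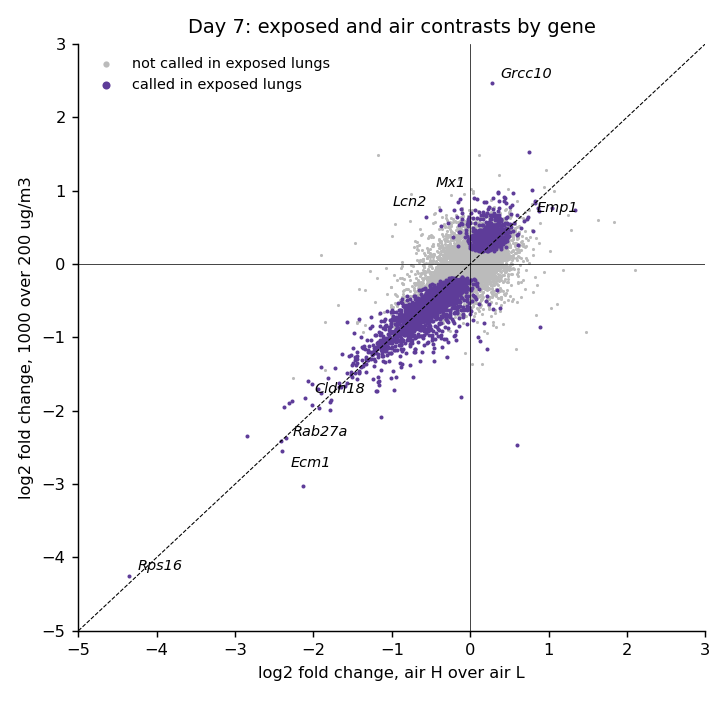
Each point is a gene tested in both contrasts, with the log2 difference between air H and air L on the horizontal axis and between 1000 and 200 ug/m3 on the vertical axis. Points gather along the dashed line of equal differences, with Rps16 at -4.36 and -4.25, while Lcn2 and Mx1 lie above it; axes run from -5 to 3, which leaves 1 point out.

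Rps16, a protein of the small ribosomal subunit, had the largest difference of all genes tested. Its level was 2.8, 8.17 and 18 CPM (lowest, median and highest animal) at 1000 ug/m3 and 130, 140 and 164 CPM at 200 ug/m3. The groups lie far apart, with a log2 difference of -4.25 ± 0.21 (SE, n = 6 and 6, adjusted p = 5.39e-09) and one of -4.36 in air. Ecm1, a secreted matrix glycoprotein, was at 23.8, 26.7 and 33.1 CPM after 1000 ug/m3 and at 142, 160 and 190 CPM after 200 ug/m3. No animal of either dose came near the other group, and the difference was -2.55 ± 0.10 (SE, adjusted p = 4.28e-13), against -2.40 in air. Rab27a, a small GTPase of secretory vesicles, was at 11.6, 14.6 and 18 CPM and at 67.1, 78 and 81.6 CPM. Its difference was -2.41 ± 0.10 (SE, adjusted p = 2.16e-12) in exposed lungs and -2.41 in air.

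Cldn18, a tight junction claudin of the alveolar epithelium, was at 107, 136 and 252 CPM after 1000 ug/m3 and at 446, 483 and 522 CPM after 200 ug/m3. The highest of the 6 lower values belonged to animal 037, and the difference was -1.83 ± 0.10 (SE, adjusted p = 3.80e-10), with -2.11 in air. Anp32b, an acidic nuclear phosphoprotein, was at 14.9, 20.7 and 35.9 CPM and at 54.7, 62.8 and 78.5 CPM. Its exposed difference of -1.72 ± 0.12 (SE, adjusted p = 5.41e-09) stood beside one of -0.97 in air, the largest gap between the contrasts among the 12 leading lower genes. The other 7 were Hnrnpa1, an RNA-binding splicing protein, at -1.99, the secretory membrane protein Scamp3 at -1.95, the dynein light chain Dynll2 at -1.86, the complement C1 inhibitor Serping1 at -1.76, the chondroitin sulfate enzyme Csgalnact2 at -1.67, Ddah1, which breaks down an inhibitor of nitric oxide synthesis, at -1.67, and the myosin light chain Myl12b at -1.63. Dynll2 had 0 counts in animal 037 and lay between 19.7 and 40.1 CPM in the other 5 animals of its group. Rps16, Hnrnpa1 and Anp32b belong to families with near-identical copies in rodent genomes, so their counts are uncertain. All 12 leading lower genes were also called lower in air.

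**Figure D3:**
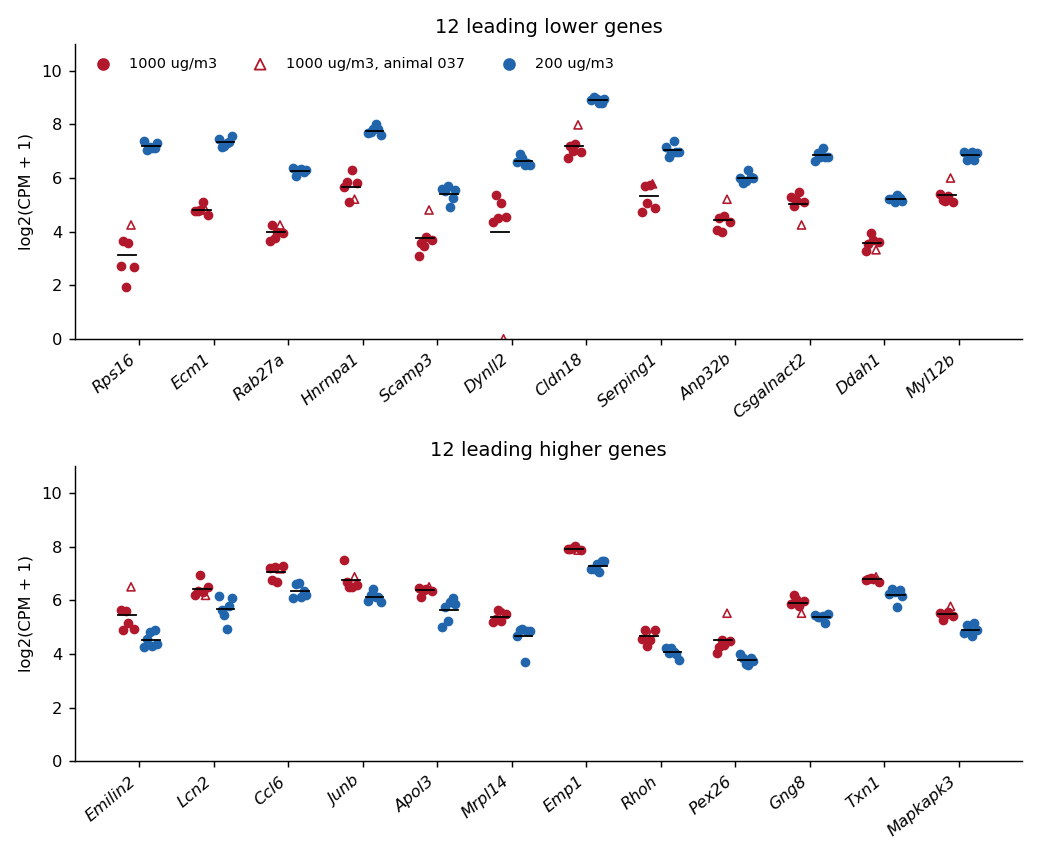
Levels of the 12 leading lower genes (top) and 12 leading higher genes (bottom) in each animal, as log2(CPM + 1), with a black bar at the mean of 6 animals and an open triangle for animal 037. The 24 genes were chosen for groups that do not overlap, and the gaps are wider among the lower genes, up to 8.17 against 140 CPM in the medians of Rps16.

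The higher genes had smaller differences. Emilin2, an elastin microfibril interface glycoprotein, was at 29.1, 41.2 and 89.9 CPM after 1000 ug/m3 and at 18.2, 21.3 and 29 CPM after 200 ug/m3. The groups nearly touch, and the difference was 0.77 ± 0.18 (SE, adjusted p = 0.0041), against 0.23 in air. Lcn2, a lipocalin that binds iron siderophores and is stored in neutrophil granules and made by injured epithelium, was at 71.9, 79.5 and 123 CPM and at 29.2, 52.1 and 71.1 CPM. Its lowest animal at 1000 ug/m3 lay just above the highest at 200 ug/m3, and the difference was 0.74 ± 0.20 (SE, adjusted p = 0.0196), against -0.39 in air (adjusted p = 0.272). The Lcn2 call was lost without animals 037 and 038 (adjusted p = 0.0517). Ccl6, a rodent chemokine of macrophages, was at 102, 146 and 153 CPM and at 67.3, 76.6 and 100 CPM, a difference of 0.71 ± 0.13 (SE, adjusted p = 8.56e-04), against 0.17 in air. Emp1, an epithelial membrane protein, had the smallest p of the 12, with 233, 240 and 258 CPM and 133, 153 and 179 CPM. Its difference of 0.64 ± 0.08 (SE, adjusted p = 4.05e-06) stood beside 0.73 in air.

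The other 8 leading higher genes ranged from 0.55 to 0.68. They were the AP-1 factor Junb, the apolipoprotein Apol3, the mitochondrial ribosomal protein Mrpl14, the GTPase Rhoh of blood cells, the peroxisome import factor Pex26, the G protein subunit Gng8, the disulfide reductase thioredoxin, Txn1, and the kinase Mapkapk3 downstream of p38. In air, 6 of the 12 leading higher genes were called higher (Apol3, Mrpl14, Emp1, Gng8, Txn1 and Mapkapk3). Differences between the exposed and the air contrast passed no threshold for any of them, with 1.12 ± 0.33 (SE, adjusted p = 0.891) for Lcn2.

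Interferon-induced genes include blockers of virus replication, and 19 of them were tested. At 1000 ug/m3, 7 were higher and 1 was lower, 42.1% of the members where 22.4% of all genes passed, and their median difference was 0.34 beside 0.01 over all genes. The higher members included Mx1, Usp18, Rsad2, Ifi44, Irf1 and Gbp2, of which Rsad2 no longer passed without animal 037 (adjusted p = 0.0545). Mx1, a GTPase against RNA viruses, was at 98.8, 142 and 188 CPM after 1000 ug/m3 and at 55.7, 86.9 and 102 CPM after 200 ug/m3. The groups overlap only where the lowest animal of 1000 ug/m3, the shallow 037, falls under the highest of 200 ug/m3. Mx1 differed by 0.85 ± 0.19 (SE, adjusted p = 0.00593) in exposed lungs and by -0.16 in air (adjusted p = 0.725). Bst2, a membrane tether of budding viruses, went the other way at -1.11 ± 0.21 (SE, adjusted p = 0.00194), as in air at -1.06. In air, 0 of the 19 members were higher and 4 were lower, with a median of -0.12. The difference of the contrasts was 1.01 ± 0.35 (SE, adjusted p = 0.891) for Mx1, and it was called for 0 of the 19 members.

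RefSeq promoter windows of the assembly GRCr8 were available for 6 of the 8 called interferon-induced genes, each from 250 bases before to 50 after the start. They were searched on both strands for the letters GAAA repeated after a gap of 2 bases of any kind, the core that interferon-activated factors bind, with overlapping matches counted. The motif stood in 4 of the 6 windows (Bst2, Rsad2, Ifi44 and Gbp2) and in 1312 of all 33469 windows of this length, or 3.92%. It also stood in 4 of the 6 windows of members that were tested and not called, the same share as among the called members. Shown are the member that was lower, the higher member with most matches and the higher member with the largest difference, picked after their values were seen. Capitals mark the motif as read on either strand. The letters of the motif are not in the windows of Mx1 and Irf1, and a match is a description of the sequence only.
Bst2, chr16:18254918-18255217, minus strand, 2 overlapping matches: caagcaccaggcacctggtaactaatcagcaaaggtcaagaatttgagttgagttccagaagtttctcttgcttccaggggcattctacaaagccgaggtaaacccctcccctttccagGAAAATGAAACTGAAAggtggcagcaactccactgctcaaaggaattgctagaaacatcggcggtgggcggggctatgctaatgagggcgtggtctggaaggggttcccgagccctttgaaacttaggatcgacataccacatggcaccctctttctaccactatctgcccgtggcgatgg
Ifi44, chr2:243303791-243304090, minus strand, 2 matches: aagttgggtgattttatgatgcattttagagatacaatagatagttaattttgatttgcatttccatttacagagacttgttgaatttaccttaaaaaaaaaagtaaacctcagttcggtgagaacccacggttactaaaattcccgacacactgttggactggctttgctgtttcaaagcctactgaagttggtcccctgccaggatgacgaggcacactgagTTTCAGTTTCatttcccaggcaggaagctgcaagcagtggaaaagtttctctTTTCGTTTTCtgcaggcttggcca
Mx1, chr11:50294557-50294856, minus strand, no match: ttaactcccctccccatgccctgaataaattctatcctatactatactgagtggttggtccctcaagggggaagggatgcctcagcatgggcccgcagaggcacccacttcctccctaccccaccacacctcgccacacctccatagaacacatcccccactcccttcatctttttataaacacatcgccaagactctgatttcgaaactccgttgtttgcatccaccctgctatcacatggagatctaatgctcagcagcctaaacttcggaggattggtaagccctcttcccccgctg

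The share called among inflammation genes lay on both sides of the 22.4% over all genes. Of 14 tested cytokines and NF-kB targets, 1 was higher (7.14%), the inflammatory cytokine Il1b, at 8.99, 19.1 and 21.9 CPM after 1000 ug/m3 and 7.68, 11.2 and 12.5 CPM after 200 ug/m3. Its groups overlap at the 1 count of animal 037, and the difference was 0.80 ± 0.15 (SE, adjusted p = 4.07e-04), against 0.53 in air (adjusted p = 0.125). Of 18 chemokine ligands 8 were tested, of which 37.5% were called: Ccl3 (0.97) and Cxcl12 (0.33) were higher and the endothelial chemokine Cx3cl1 (-0.84) lower. In air, Cx3cl1 was also called lower, at -1.08, while Ccl3 (0.54) and Cxcl12 (-0.03) were not called. Ccl3 lay low, with medians of 5.57 CPM at 1000 ug/m3 and 3.18 CPM at 200 ug/m3, under the 8.99 CPM of 1 count in animal 037. Of 15 acute phase and complement genes, 33.3% were called and 4 were higher, among them Lcn2, the complement subunit C1qc at 0.51 and complement factor B, Cfb, at 0.36, and Serping1 was lower. Serping1 was called lower in air too, at -1.91, while C1qc (0.20) and Cfb (0.15) were not called there. Among 13 genes of antigen presentation, the peptide transporter Tap1 (0.53) and B2m (0.28), the light chain of class I molecules, were higher (15.4%). Tap1 and B2m were called higher in air as well, at 0.25 and 0.165.

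Markers of blood cells stood beside these genes, again against 8.16% higher and 14.3% lower over all genes. Neutrophil markers were higher for 3 of 7 tested members (42.9%), the alarmins S100a9 (0.77) and S100a8 (0.77) and the growth factor receptor Csf3r (0.40). The median of the tested members was 0.61, against 0.32 over the 8 members tested in air. S100a9 and S100a8 had larger differences in air, at 0.86 and 1.05, and Csf3r a smaller one, at 0.13, with 0 members called there. The summed level of the neutrophil markers ran from 71.9 to 202 CPM at 1000 ug/m3 and from 94 to 110 CPM at 200 ug/m3, and 1 of the 12 markers was at 0 in all libraries. B cell markers were higher for 3 of 8 tested members (37.5%), Fcer2 (0.89), Cd79b (0.56) and Ms4a1 (0.43), with a median of 0.46 against -0.14 in air and summed levels of 69.3 to 108 CPM and 49.3 to 72.6 CPM. The difference between the exposed and the air contrast was called for 0 B cell markers, with 1.01 ± 0.36 (SE, adjusted p = 0.891) for Fcer2. Fcer2 lay low, with medians of 5.3 CPM at 1000 ug/m3 and 2.8 CPM at 200 ug/m3, under 1 count of animal 037. Red blood cell markers were higher for 3 of 6 tested members (50%), with the haemoglobin gene Hbb at 0.67 and the erythroid enzyme Alas2 at 0.59. The red blood cell median was 0.40 in both contrasts, and Hbb and Alas2 were at 0.59 and 0.40 in air, neither called. Platelet markers were higher for 2 of 6, including the chemokine Pf4 at 0.65, and lower for 1, the integrin Itgb3. Pf4 (0.47) and Itgb3 (-0.29) were called in the same directions in air. Of 9 T cell markers, 1 was called (11.1%), the kinase Lck, higher at 0.50, and of 10 tested NK cell markers 1 (10%), the factor Eomes, lower at -1.10. Eomes had medians of 1.29 CPM at 1000 ug/m3 and 5.21 CPM at 200 ug/m3, under 1 count of animal 037. Lck and Eomes were called in the same directions in air, at 0.52 and -0.76. In the fit of the 24 libraries of day 7, S100a9, S100a8 and Csf3r no longer passed (adjusted p = 0.0614, 0.0551 and 0.109), and without animals 037 and 038 neither did Cd79b (0.0563) or Ms4a1 (0.0994). The part of these cells in the inflammatory and interferon results was not tested.

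Of 10 tested alveolar macrophage genes, 1 was called (10%, beside 22.4% over all genes), the fatty acid carrier Fabp5, higher at 0.74, with 1.34 in air. Interstitial macrophage genes were higher for 3 of 11 (27.3%), namely C1qc, Emr1 (0.55) and the lipid carrier Apoe (0.30).

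Genes that handle organic compounds of the kind carried by the particles were called for some enzymes, and Cyp1a1 was not among them. Cyp1a1, the enzyme most typical of aryl hydrocarbon receptor activation, was at 5.64, 16.1 and 26.9 CPM after 1000 ug/m3 and at 0.909, 8.82 and 14.3 CPM after 200 ug/m3. The groups overlap, and the difference of 0.66 ± 0.52 (SE, adjusted p = 0.413) did not pass. Of 7 tested genes of that receptor and its targets, its partner Arnt alone passed, lower at -0.26, 14.3% of the members beside 22.4% over all genes. Among 17 xenobiotic enzymes, 4 were higher and 1 lower (29.4%), with Gsta1, a glutathione transferase, at 0.40, the carboxylesterase Ces1d at 0.29 and the lung cytochrome Cyp2b1 at 0.24. In air, 3 members of the list were higher and 2 lower, and Gsta1 (0.37), Ces1d (0.25) and Cyp2b1 (-0.16) were not called. The difference of the contrasts was called for 0 members. Por, the reductase that feeds electrons to cytochrome P450, was lower after 1000 ug/m3, at 35.9, 55.7 and 94.2 CPM against 127, 128 and 143 CPM. That is a difference of -1.03 ± 0.12 (SE, adjusted p = 8.62e-06) with no overlap, and of -1.27 in air.

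Antioxidant genes were called in both directions. Of 15 NRF2 genes, 5 were higher and 0 lower, 33.3% of the members beside 22.4% over all genes (8.16% higher), including Keap1 (0.34), which holds NRF2 in the cytoplasm, the pentose phosphate enzyme Taldo1 (0.33), the glutathione reductase Gsr (0.30) and the autophagy receptor Sqstm1 (0.25). Their median was 0.19 in exposed lungs and 0.15 in air, where 6 were higher and 1 lower. Of 14 superoxide dismutases, catalase, peroxidases and their partners, 6 were higher and 4 lower, 71.4% of the members. Among the 3452 most abundant of all tested genes the share called was 35.7%. Txn1 was at 102, 110 and 117 CPM and at 53.4, 76.5 and 85.9 CPM, a difference of 0.55 ± 0.09 (SE, adjusted p = 1.69e-04), and the peroxiredoxin Prdx1 was higher at 0.45. Catalase, Cat, which breaks down hydrogen peroxide, was at 141, 156 and 180 CPM and at 192, 200 and 212 CPM, lower by a log2 difference of -0.39 ± 0.06 (SE, adjusted p = 1.31e-04). Prdx2, another peroxiredoxin, was lower at -0.45, and the secreted glutathione peroxidase Gpx3 at -1.04. In air, 5 members of the same list were higher and 4 lower.

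The lists of alveolar and vessel cells are set against all genes, of which 8.16% were higher and 14.3% lower. The share called was 35.7% among the 3452 most abundant genes. Of 11 type I pneumocyte genes, which mark the thin cells of gas exchange, 6 were lower and 2 higher, 72.7% of the members, with a median of -0.21 against -0.27 in air, where 9 were lower and 1 higher. Without animal 037, Emp2 no longer passed (adjusted p = 0.0508). Beside Cldn18, the chloride channel protein Clic5 (-0.84), the anchoring protein Akap5 (-0.33), caveolin Cav1 (-0.30), the water channel Aqp5 (-0.36) and Emp2 (-0.19) were lower. Ager, a receptor abundant on these cells, was higher at 0.22, as was Hopx at 0.38. Their summed level ran from 6236 to 6696 CPM at 1000 ug/m3 and from 6945 to 7742 CPM at 200 ug/m3, with no overlap. Of 14 genes listed for type II pneumocytes, 3 were lower, the lineage factor Nkx2-1 (-0.50), the fatty acid transporter Cd36 (-0.48) and the phosphate transporter Slc34a2 (-0.31). The 1 higher member was Hopx, which is counted in the type I list as well. Among 16 endothelial genes, 4 were lower and 2 higher, a split like that of all genes. Kdr, the main receptor for vascular endothelial growth factor, was at 283, 301 and 348 CPM and at 595, 744 and 810 CPM. The groups lie far apart, with a difference of -1.26 ± 0.08 (SE, adjusted p = 1.21e-09) and of -1.11 in air. The junction cadherin Cdh5 was at -0.73 and the capillary carbonic anhydrase Car4 at -0.40, while the claudin Cldn5 was higher at 0.37. Of 7 tested club cell genes, Aldh1a1 (0.32) and Hp (0.45) were higher, and of 15 ciliated cell genes, 1 was. In air, Aldh1a1 (0.29) was called higher and Hp (0.20) was not called. Summed club cell levels were 1327 to 3007 CPM at 1000 ug/m3 and 2016 to 3797 CPM at 200 ug/m3, with overlap.

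**Figure D4:**
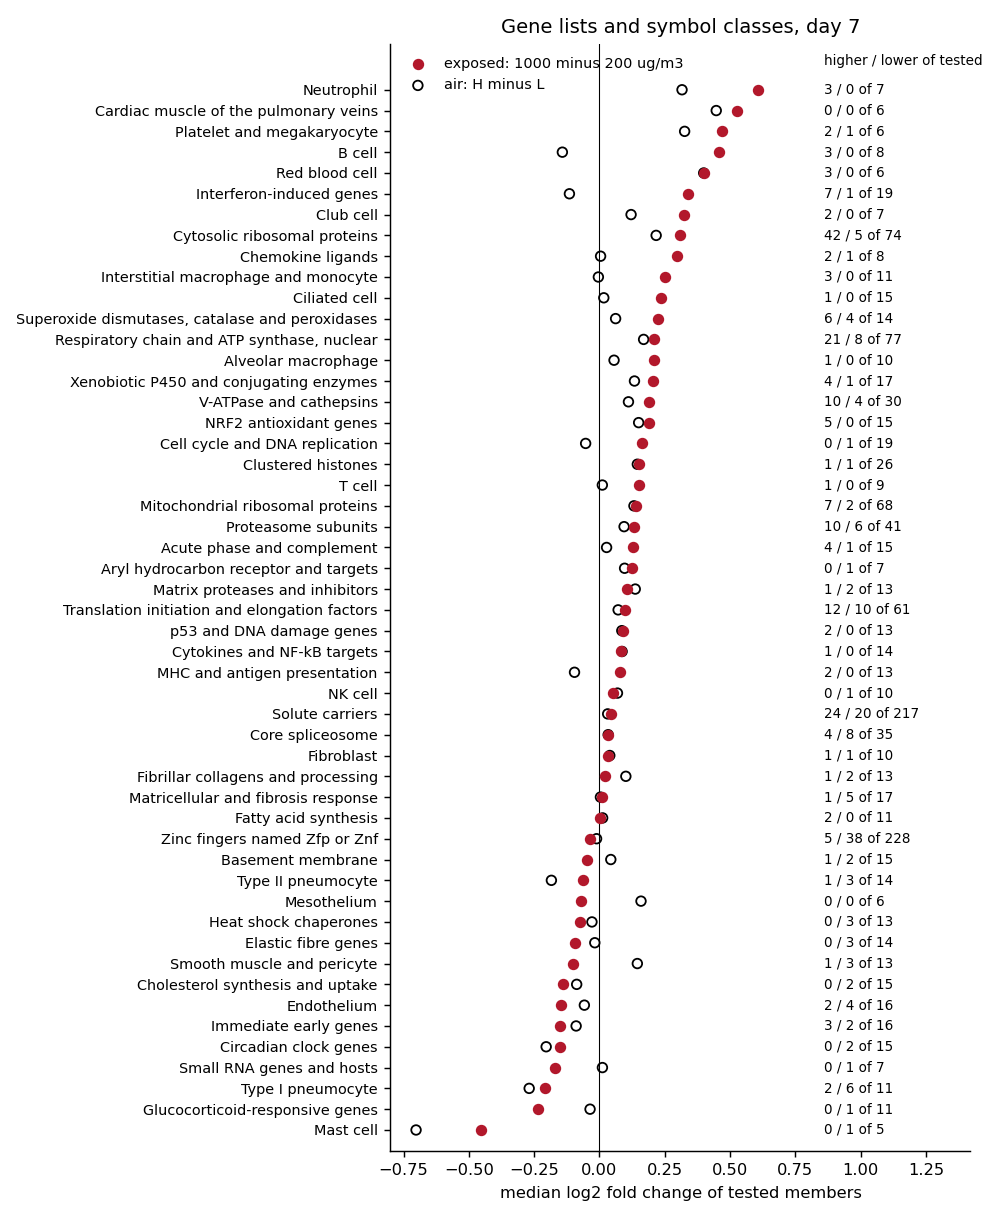
Median log2 difference of the tested members of each list or symbol class with at least 5 tested members (horizontal axis), in exposed lungs (filled) and in air (open), with the number of members called higher and lower in exposed lungs at the right. Interferon-induced genes and B cell markers have exposed medians of 0.34 and 0.46 and air medians below 0, whereas cytosolic ribosomal proteins lie above 0 and type I pneumocyte genes below 0 in both. The difference between the contrasts was called for 0 interferon-induced genes and 0 B cell markers.

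Matrix genes were called in both directions, and lower calls also outnumber higher calls over all genes (14.3% against 8.16%). Of 17 matricellular and fibrosis genes, 5 were lower and 1 higher (35.3%), although their median was 0.01. Fibronectin, Fn1, was at 650, 787 and 890 CPM after 1000 ug/m3 and at 962, 1178 and 1392 CPM after 200 ug/m3, with a difference of -0.59 ± 0.10 (SE, adjusted p = 1.44e-04). The growth factor Tgfb1 was at -1.13 and the proteoglycan Bgn at -0.59. In air, Fn1 (-0.36), Tgfb1 (-1.12) and Bgn (-0.38) were called lower too. Of 13 fibrillar collagen genes, 2 were lower and 1 higher, 23.1% beside 22.4% over all genes. Col1a1, a chain of type I collagen, was at 86.4, 133 and 162 CPM and at 217, 310 and 405 CPM, without overlap, and differed by -1.30 ± 0.19 (SE, adjusted p = 5.01e-04), against -1.23 in air. Of 14 elastic fibre genes, 3 were lower (21.4%), the latent TGF-beta binding protein Ltbp4 at -0.93 and the fibulins Fbln5 at -0.52 and Fbln1 at -0.42. All 3 were called lower in air, at -0.83, -0.47 and -0.49. The inhibitors of metalloproteinases Timp1 (-1.15) and Timp2 (-0.43) were lower, and the protease inhibitor Serpina1 was higher at 0.53. Timp1 (-0.86) and Timp2 (-0.45) were called lower in air, where Serpina1 (0.33) was not called. Of 13 smooth muscle and pericyte genes, 3 were lower and 1 higher. Acta2, smooth muscle actin, differed by -1.02 in exposed lungs, at 27, 30.1 and 44.2 CPM against 39.5, 64.5 and 90 CPM, and by -0.33 in air (adjusted p = 0.333). For Acta2 the difference of the contrasts was -0.69 ± 0.32 (SE, adjusted p = 0.934). The other lower members, Mylk (-0.40) and Smtn (-0.45), were called lower in air too, at -0.21 and -0.32. The higher member Cnn1 (0.44) was at 0.40 in air and not called there.

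In the lists of stress and cell state, the share called ran from 5.26% of the cell cycle genes to 31.2% of the immediate early genes, beside 22.4% over all genes. Of 13 heat shock chaperones, 3 were lower (23.1%), with Hsp90ab1 at -0.65 and Hspb1 at -0.63. Of 15 clock genes, 2 were lower, the repressor Bhlhe40 (-1.37, against -0.87 in air) and Npas2 (-0.84, against -0.80 in air). The difference of the contrasts did not pass for Bhlhe40, at -0.50 ± 0.17 (SE, adjusted p = 0.891). In air, 1 clock gene was higher and 6 were lower, with a median of -0.20 against -0.15 in exposed lungs. Of 16 immediate early genes, 3 were higher, Junb, Ier2 (0.54) and Jund (0.39), and 2 were lower, although the median was -0.15. Glucocorticoid-responsive genes had 1 call of 11 (Sgk1, -0.24, which no longer passed at an adjusted p of 0.0731 without scaling factors). Of 19 cell cycle genes, 1 was lower, Plk1, at -0.98. Plk1 had medians of 1.74 CPM at 1000 ug/m3 and 3.48 CPM at 200 ug/m3, under 1 count of animal 037. Of 13 p53 and DNA damage genes, Ccng1 (0.27) and Phlda3 (0.37) were higher. Cholesterol genes had 2 lower of 15, including the epoxidase Sqle (-0.73), and fatty acid synthesis genes 2 higher of 11, Elovl1 and Acly.

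Gene classes of the basic cell machinery are set against 22.4% called over all genes and 35.7% called among the 3452 most abundant of them. Of 74 cytosolic ribosomal protein genes, 42 were higher and 5 lower, 63.5% of the class, with a median of 0.31 against 0.22 in air, where 36 were higher and 10 lower. Rpl32 was at 214, 239 and 264 CPM and at 165, 176 and 192 CPM, a difference of 0.43 ± 0.07 (SE, adjusted p = 7.48e-05), and Rpl24 differed by 0.48. Rps16 is 1 of the 5 lower members of this class. Of 77 nuclear genes of the respiratory chain and ATP synthase, 21 were higher and 8 lower (37.7%), with Atp5a1 at 0.36 and Atp5e at 0.43. Proteasome subunits were higher for 10 and lower for 6 of 41 (39%), with Psmb4 at 0.61, and V-ATPase subunits and cathepsins of the lysosome were higher for 10 and lower for 4 of 30 (46.7%), with Ctsa at 0.36. Mitochondrial ribosomal proteins were higher for 7 and lower for 2 of 68 (13.2%), and 15 and 2 without scaling factors. Core spliceosome genes were lower for 8 and higher for 4 of 35 (34.3%), with Prpf8 at -0.63 and Sf3b4 at -1.13. Zinc finger genes named Zfp or Znf were lower for 38 and higher for 5 of 228 (18.9%), with Zfp36l1 at -1.04 and Zfp652 at -0.94. Their median was -0.04, and 0.00 without scaling factors, where 29 were lower and 14 higher.

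The same contrast at the other days had few or no calls. At day 1, 1 of 11535 genes passed (0.00867%), Rmdn2 at 0.50, while DESeq2 called 24 and limma-voom 0 and 1505 had an unadjusted p under 0.05. At day 27, 0 of 14268 passed (0%, edgeR), DESeq2 and limma-voom also called 0, and 834 had an unadjusted p under 0.05. Libraries of day 1 were shallower, at 1042336 to 1601609 counts in the exposed groups. At day 27 the totals of the 1000 ug/m3 group ran from 149004 to 5736026 counts. The test of the difference itself called 1846 of 14518 genes between day 7 and day 27 (12.7%), 501 upward (3.45%) and 1345 downward (9.26%). Between day 7 and day 1 it called 2201 of 12532 (17.6%), 766 upward (6.11%) and 1435 downward (11.5%). Scaled over all 72 libraries, the day 7 mean of Rps16 was 8.83 ± 5.33 CPM (SD, n = 6) for 1000 ug/m3 and 8.97 ± 5.72 CPM for air H, against 143 ± 12.6 CPM for 200 ug/m3 and 180 ± 10.8 CPM for air L. On day 27 the means stood in the other order, with 66.3 ± 48.9 and 137 ± 38.3 CPM in the H groups and 30.4 ± 10.2 and 27.3 ± 17.4 CPM in the L groups. The day 27 exposed contrast of Rps16 did not pass, at 1.27 ± 0.49 (SE, adjusted p = 0.811, edgeR). The day 27 means of Ecm1 were 114 ± 41.9 and 153 ± 16.3 CPM in the H groups and 78.4 ± 22.2 and 57.9 ± 21.2 CPM in the L groups, and those of Rab27a 46.9 ± 26.8, 72.9 ± 9.28, 36.7 ± 6.52 and 35.6 ± 6.34 CPM in the same order. The day 7 mean of Ccl6 was 133 ± 22.5 CPM for 1000 ug/m3 and 80.3 ± 14.8 CPM for 200 ug/m3, with 104 ± 34.7 and 91.6 ± 23.5 CPM in air H and air L.

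**Figure D5:**
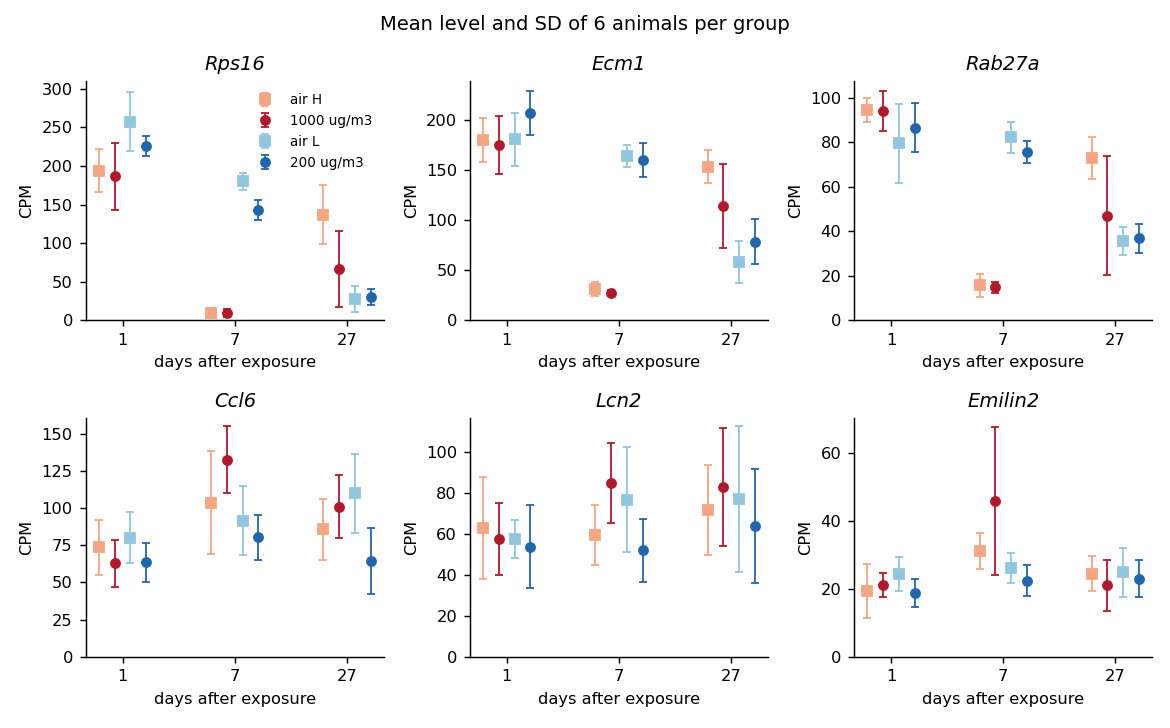
Mean level (CPM, points) and SD (bars) of 6 animals in each of the 12 groups of the study, by days after exposure, for 3 leading lower genes (top) and 3 leading higher genes (bottom). Rps16, Ecm1 and Rab27a are low in both H groups at day 7, exposed and air, while Ccl6, Lcn2 and Emilin2 have their highest day 7 mean after 1000 ug/m3. The genes were picked for their difference between the exposed groups of day 7. For Lcn2 the means after 1000 ug/m3 (84.8 ± 19.5 CPM, SD) and in air L (76.7 ± 25.4 CPM) lie within their spread, with 51.9 ± 15.4 CPM after 200 ug/m3.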

How the data were processed

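Per the labels' protocols, lung RNA was depleted of ribosomal RNA and made into libraries that mark the strand. The authors deposited raw counts for 30042 gene symbols in a single table. Among the tools in the submitters' processing notes are HISAT2 2.1.0 and HTSeq 0.6.1, with the build Rnor_6.0. Neither annotation release nor strand setting is given there, so counts of overlapping, antisense and near-identical genes are uncertain. Groups came from the titles and characteristics.

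Counts were fitted with edgeR 4.0.16 in R 4.3.3 (TMM, filterByExpr, robust quasi-likelihood F test, Benjamini-Hochberg adjusted p under 0.05) on the 12 exposed libraries of day 7. Differences between contrasts were tested as interaction terms. The script was tested on simulated data. DESeq2 1.42.0, limma 3.58.1 (voom), other scalings and filters, a fold limit of 1.5 and fits without each animal were alternatives. No 2 libraries of a group were identical.

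The comparison, lists and classes were chosen with earlier results of these data known. Lists are described by counts and medians, with no set test. Of 583 list entries, 564 matched the table directly, 6 by a synonym and 13 were not found. Named are up to 12 leading genes per direction that pass with and without animal 037, have a symbol that is no identifier, groups that do not overlap and a mean log2 CPM of 4 or more; up to 4 passing members per list by smallest p, or a single value where none passed; 2 passing members per class; and Cyp1a1. Other names were chosen after their values were seen, and 1 gene that the rule names is not reported here. Names and promoter windows come from RefSeq GRCr8, a build other than that of the counts. The labels say that rats were housed in pairs and not which animals shared a cage.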

Additional observations from a re-analysis of the deposited data

Results flagged for a closer look

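Of 50 groups of 6 animals checked, for the library totals and the leading genes, 10 held a value apart from the others. The limit used flags about 1 in 20 groups of independent normal values. These groups are mostly selected genes with few counts in animal 037, so the 10 cannot be read as an excess over chance. Animal 037, the shallow library, gave 6 of the 10 values: Emilin2 at 89.9 CPM, Pex26 at 44.9, Scamp3 at 27, Cldn18 at 252, Anp32b at 35.9 and Myl12b at 62.9 CPM, each above the other animals of 1000 ug/m3. Scamp3, Anp32b, Pex26 and Myl12b had only 3, 4, 5 and 7 counts in that library. Of the rest, Lcn2 stood at 123 CPM in animal 015, Junb at 181 CPM in animal 013 and Ecm1 at 33.1 CPM in animal 016, all of 1000 ug/m3 and all high. Mrpl14 stood low at 12.1 CPM in animal 076 of 200 ug/m3.

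The log2 difference between 1000 and 200 ug/m3 itself differed between day 7 and day 27 for 1846 genes, and between day 7 and day 1 for 2201 genes, by an interaction test. For Rps16 the day 7 contrast differed from that of day 27 by -5.51 and from that of day 1 by -3.97. For Ecm1 these differences were -3.12 and -2.31, and for Rab27a -2.95 and -2.54. For Ccl6 the day 7 contrast was higher than that of day 1 by 0.71.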

How the results depend on the processing

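The count of 3098 genes stayed between 2366 and 3350 when each animal was left out in turn, and between 2420 (DESeq2) and 4001 (a fit of the 24 libraries of day 7) under the other scalings, filters, tools and sample sets. It moved to 191 with a fold limit of 1.5, of which Grcc10 alone was higher, and to 1797 at an adjusted p under 0.01, since both ask for more. Without animals 037 and 038, whose numbers lie apart from those of the other 1000 ug/m3 animals, 2749 genes passed, and 17 of the 142 named genes no longer did (Lcn2, Cxcl12, Cfb, B2m, Bag3, Sgk1, Acly, Serpinh1, Serpina1, Hopx, Apoe, Eomes, Cd79b, Ms4a1, Ahsp, Itgb3 and Cnn1). Without animal 037 alone, Acly and Ahsp no longer passed. In DESeq2, 13 of the 139 named genes with a value did not pass (Ccl3, Sgk1, Phlda3, Plk1, Sc5d, Cd36, Hp, Csf3r, Ms4a1, Ahsp, Itgb3, Itga2b and Cnn1). In limma-voom 7 did not (Bag3, Eomes, Itga2b, Phlda3, Pifo, Plk1 and Sgk1), in the fit of the 24 libraries 7 (Ahsp, Cnn1, Csf3r, Cxcl12, Ms4a1, S100a8 and S100a9), and in that of all 72 libraries 10 (Apoe, Cd79b, Cnn1, Csf3r, Cxcl12, Cyp2b1, Itga2b, Ms4a1, Serpina1 and Serpinh1). The test between exposed and air contrasts gave 1 call in DESeq2, and the day 1 contrast 24 calls in DESeq2 and 0 in limma-voom; the cause was not tested. No direction turned for any of the 142 named genes under the alternatives run on them, and all 24 leading genes passed in DESeq2, in limma-voom and under the other scalings and the 1-CPM filter, while 12 missed the fold limit. No paired analysis was possible because the animal numbers differ between the groups. Depth limits animal 037, where a gene under 27 CPM may be at 0.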
